A study of Mus musculus with 8 samples.

Results

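The transcription factor NF-kappaB was examined here through 10 genes, chosen by name for their roles: the subunit genes Nfkb1, Nfkb2, Rela and Relb, the inhibitor and feedback genes Nfkbia, Tnfaip3, Birc3 and Traf1, and the cytokine genes Tnf and Il1b. A gene was found on the array through the accession of its probes. Of the 10 genes, 9 had a probe, with 10 probes in all, out of 18749 genes with a probe. No probe matched Nfkb1, so that gene was not measured here. All 9 were well above background on all 8 arrays and belonged to the 14137 genes tested.

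RNA came from the No. 4 mammary glands of C57/Bl6 dams at lactation day 1, 4 wild type (WT) and 4 Th-POK-deficient (knockout, KO), and was hybridized with 1 dye to Agilent mouse arrays. Th-POK, encoded by Zbtb7b, is a zinc finger transcription factor best known for directing T cell precursors to the CD4 lineage, and the study asked how its loss affects the lactating gland. The sources name no tissue-specific driver for the knockout, so leukocytes of the gland as well as the epithelium are taken to lack Th-POK in KO dams. The females were age matched. All values are log2 signals after quantile normalization between arrays, so a difference of 1 is a 2-fold change and levels of different probes cannot be compared. The WT arrays were scanned on 1 slide and the KO arrays on another, so genotype and slide cannot be told apart in any result given here. The p-values measure the spread between arrays of a genotype, and the 4 arrays per genotype limit the precision. Zbtb7b lay between 9.90 and 10.42 on the WT arrays and was not well above background on any KO array, at least 81.5-fold lower (limma, adjusted p = 5.71e-09).

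NF-kappaB proteins act as dimers. In resting cells inhibitor (IkB) proteins hold them in the cytoplasm. Cytokines such as TNF and interleukin 1 activate IkB kinase, which marks the inhibitor for destruction and lets RelA-containing dimers enter the nucleus. A slower branch processes the Nfkb2 product into a partner of RelB. Many of the genes that NF-kappaB switches on encode its own brakes, among them Nfkbia and Tnfaip3. In the mammary gland the pathway is known to act downstream of RANK ligand in the growth of alveoli during pregnancy and to become active again at involution.

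The DNA side of this feedback can be read in the promoters. Below are the 90 bases before the RefSeq transcription start (GRCm38.p6) of 6 genes that the results turn on: the subunit that rose in KO glands, 3 genes of the feedback loop that did not pass the test, the cytokine Tnf, and the chemokine gene Cxcl1, whose difference was the largest among the called genes of the pathway. Capitals mark matches to the NF-kappaB consensus (kappaB site) on either strand, and overlapping matches are merged.
Rela, chr19:5637451-5637540, + strand: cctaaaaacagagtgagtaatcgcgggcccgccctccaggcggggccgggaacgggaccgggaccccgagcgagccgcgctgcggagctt
Nfkb2, chr19:46304647-46304736, + strand: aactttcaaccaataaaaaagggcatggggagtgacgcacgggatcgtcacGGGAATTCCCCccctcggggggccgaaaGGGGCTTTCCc
Nfkbia, chr12:55492648-55492737, - strand: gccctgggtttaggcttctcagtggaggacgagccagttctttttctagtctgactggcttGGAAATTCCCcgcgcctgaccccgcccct
Tnfaip3, chr10:19015411-19015500, - strand: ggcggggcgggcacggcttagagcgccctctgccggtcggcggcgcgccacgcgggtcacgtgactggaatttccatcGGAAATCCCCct
Tnf, chr17:35202008-35202097, - strand: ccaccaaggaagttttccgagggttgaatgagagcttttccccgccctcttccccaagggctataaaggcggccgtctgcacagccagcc
Cxcl1, chr5:90891155-90891244, + strand: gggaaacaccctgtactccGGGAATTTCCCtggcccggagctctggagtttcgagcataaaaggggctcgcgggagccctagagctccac

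In Nfkb2, matches began 39, 38 and 11 bases before the start, in Nfkbia 29 bases before it, in Tnfaip3 12 bases before it, and in Cxcl1 71 and 70 bases before it. Tnfaip3 held a further match 125 bases before the start, outside the stretch shown. The first of 3 windows is shown for Nfkb2 and the first of 2 for Tnfaip3. Over the whole windows of 250 bases before to 50 after a start, 3 of the 8 genes with a window (Nfkb2, Nfkbia and Tnfaip3) held the consensus, against 9.55% of 27025 genes. Among the 11228 tested genes with a window the share was 12.2%. No match lay in the windows of Rela, Birc3, Traf1, Tnf or Il1b, which says only that these letters are not in that stretch. A looser form, with 3 G, any 5 bases and 2 C, occurred in 53.5% of all genes, 69.8% of tested genes and 6 of the 8. None of the 3 genes with a consensus match differed between genotypes past the threshold.

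Among the 9 genes measured, Rela was higher in KO glands past the threshold and the other 8 did not pass it. Of all genes tested, 16.5% passed an adjusted p under 0.05, 7.53% higher and 8.96% lower in KO, so 1 of 9 is no larger a share than among genes at large. The median KO minus WT difference was 0.22 over the 9 genes and -0.024 over all genes. Because whole glands were measured, a change in the number of cells of a type and a change of RNA per cell cannot be told apart.

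**Figure D1:**
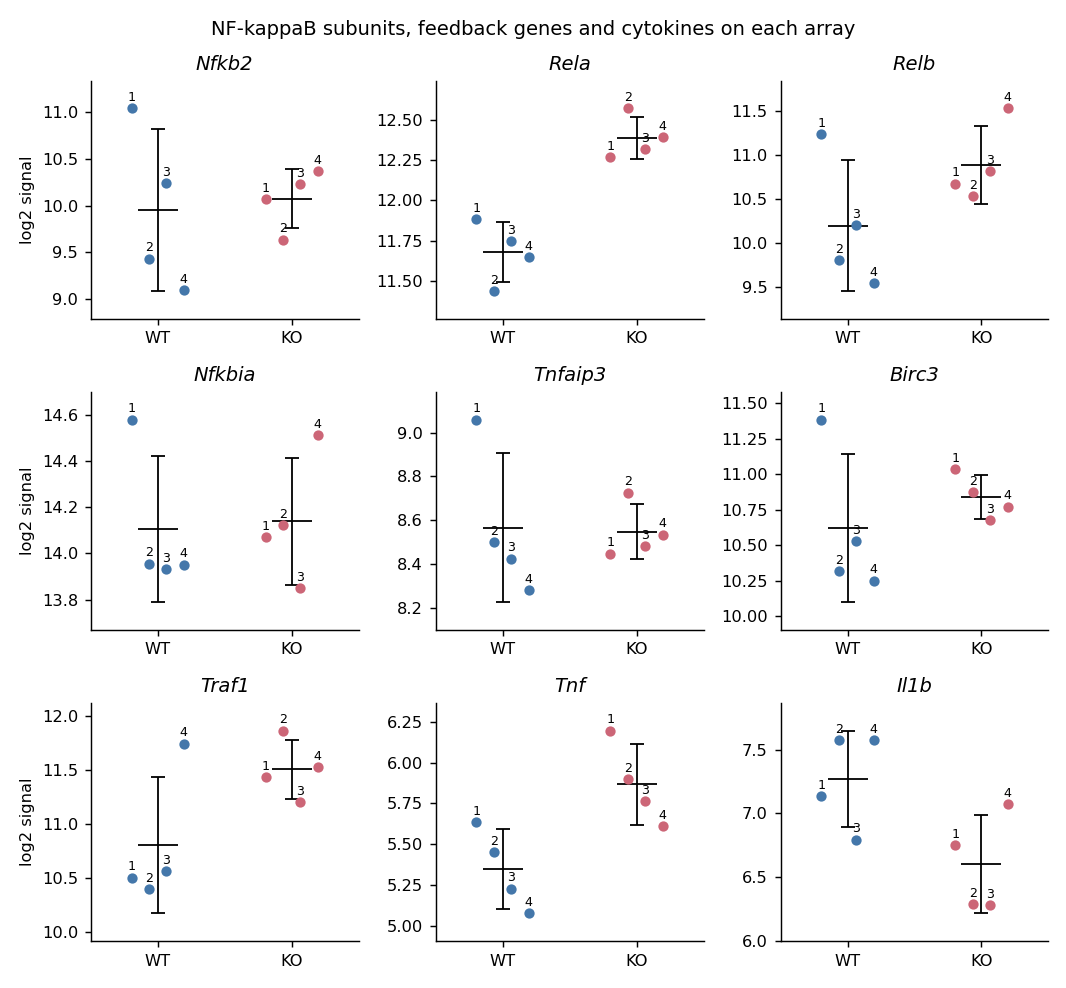
Log2 signal of the 9 measured genes on each array, with the replicate number above each point and the mean ± SD of each genotype (n = 4) as a line with bars. Rela is the 1 gene whose KO values (12.27 to 12.57) are past the adjusted threshold and all above the WT values (11.44 to 11.88).

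The 3 measured subunit genes had higher means in KO glands, of which Rela passed the threshold. Rela encodes p65, the subunit that carries the transactivation domain of the most common dimer. Its signal was 11.88, 11.44, 11.75 and 11.65 in WT replicates 1 to 4 and 12.27, 12.57, 12.32 and 12.40 in KO replicates 1 to 4. Every KO array lay above every WT array, as was the case in 1 direction or the other for 24.1% of all genes. The difference was 0.71 ± 0.13 (SE, n = 4 per genotype), or 1.64-fold, with a 95% confidence interval of 0.42 to 1.00 (limma, Benjamini-Hochberg adjusted p = 0.0143). A dimmer Rela probe, with values of 7.26 to 7.72 in WT and 8.07 to 8.30 in KO, gave a difference of 0.64. Rela is thus reported by a pair of probes that moved the same way. Under the 18 alternative settings its adjusted p lay between 0.00737 and 0.0445.

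Relb encodes the partner of p52 in the slower branch of the pathway. It read 11.24, 9.81, 10.21 and 9.54 in WT and 10.68, 10.53, 10.82 and 11.53 in KO. WT replicate 1 was the only WT array within the KO range, and the difference of 0.69 ± 0.37 (95% confidence interval -0.15 to 1.54) did not pass the threshold (limma, adjusted p = 0.211). Without WT replicate 1 the groups did not overlap and the difference was 1.04 ± 0.27 (limma, adjusted p = 0.0333). No other removal of 1 array gave a call of Relb (limma, adjusted p up to 0.410).

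Nfkb2, which encodes p100 and its product p52, varied more within WT than between genotypes. Its values were 11.04, 9.43, 10.24 and 9.09 in WT and 10.07, 9.63, 10.23 and 10.37 in KO. All KO values lay inside the WT range, and the difference of 0.12 ± 0.40 had an interval of -0.78 to 1.03 (limma, adjusted p = 0.845). That interval leaves room for changes in either direction.

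The inhibitor and feedback genes showed no difference past the threshold. Nfkbia encodes IkB-alpha, the inhibitor resynthesized after each round of activation. It read 14.58, 13.96, 13.93 and 13.95 in WT and 14.07, 14.12, 13.85 and 14.51 in KO. A single array of each genotype, WT replicate 1 and KO replicate 4, stood above the other 3 of its genotype. The mean difference was 0.034 ± 0.19 with an interval of -0.41 to 0.47 (limma, adjusted p = 0.913).

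Tnfaip3 encodes A20, a ubiquitin-editing enzyme that shuts off signalling from cytokine receptors. The signal was 9.06, 8.50, 8.43 and 8.28 in WT and 8.45, 8.73, 8.48 and 8.54 in KO. WT replicate 1 was the highest of the 8 arrays and WT replicate 4 the lowest, and the difference was -0.019 ± 0.17 with an interval of -0.41 to 0.37 (limma, adjusted p = 0.949). For Nfkbia and Tnfaip3 these intervals cover differences of up to 0.47 in size, so larger ones are outside them.

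Birc3 encodes cIAP2, a ubiquitin ligase of the TNF receptor complex. It measured 11.38, 10.32, 10.53 and 10.25 in WT against 11.03, 10.87, 10.67 and 10.77 in KO. All KO arrays were above WT replicates 2 to 4 and below WT replicate 1. The difference was 0.22 ± 0.24 over all arrays (limma, adjusted p = 0.548) and 0.47 ± 0.13 without WT replicate 1 (limma, adjusted p = 0.0401). No other removal of 1 array gave a call of Birc3 (limma, adjusted p up to 0.820).

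Traf1, an adaptor that joins TNF receptor complexes, had a different array apart. Its signals of 10.50, 10.39 and 10.56 in WT replicates 1 to 3 were below the KO values of 11.44, 11.87, 11.20 and 11.53, and WT replicate 4 read 11.75. The difference of 0.71 ± 0.30 (interval 0.023 to 1.39) did not pass the threshold (limma, adjusted p = 0.128). Without WT replicate 4 it was 1.02 ± 0.16 (limma, adjusted p = 0.0182). No other removal of 1 array gave a call of Traf1 (limma, adjusted p up to 0.286).

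The means of the 2 cytokine genes differed in opposite directions, and neither passed the threshold over all arrays. Tnf, the prototype activator of the pathway and one of its targets, was dim, with 5.64, 5.45, 5.23 and 5.07 in WT and 6.20, 5.90, 5.77 and 5.61 in KO. Only the top of the WT range and the bottom of the KO range overlapped, at WT replicate 1 and KO replicate 4. The difference was 0.52 ± 0.17, or 1.43-fold (limma, adjusted p = 0.0633), and 0.24 ± 0.093 with normexp background correction (limma, adjusted p = 0.111). Il1b, which encodes the secreted cytokine interleukin 1 beta, read 7.13, 7.58, 6.79 and 7.57 in WT and 6.75, 6.29, 6.28 and 7.07 in KO. It was lower in KO by mean, by -0.67 ± 0.24 (limma, adjusted p = 0.0847), with KO replicate 4 inside the WT range. Without KO replicate 4 the difference was -0.83 ± 0.23 (limma, adjusted p = 0.0479). No other removal of 1 array gave a call of Il1b (limma, adjusted p up to 0.203).

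When arrays were paired by the replicate numbers of the labels, the call of the cytokine genes changed. The labels do not say that arrays of equal number were matched. For Tnf, each KO array exceeded the WT array of the same number, by 0.56, 0.45, 0.54 and 0.54. For Il1b, each KO array was lower than the WT array of the same number, by -0.38, -1.29, -0.51 and -0.50. When replicate number was added as a block, both cytokine genes passed the threshold (limma, adjusted p = 0.0230 for Tnf and 0.0492 for Il1b), and so did Rela (limma, adjusted p = 0.0307). That made 3 of 9 genes called in this fit, where 19.5% of all genes were called.

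**Figure D2:**
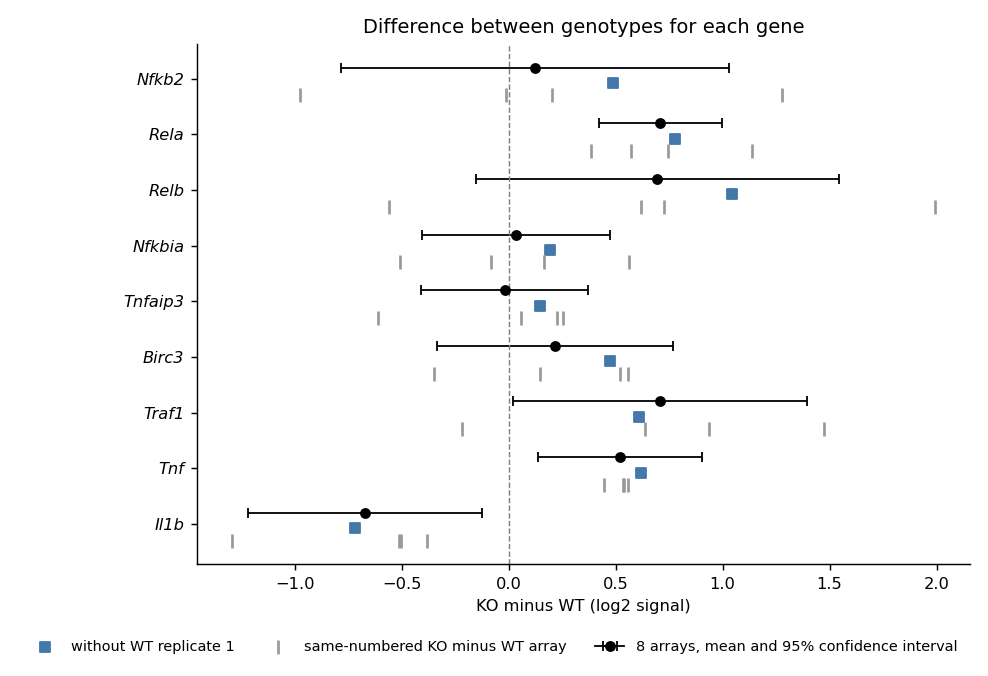
KO minus WT difference in log2 signal for each gene: circles with bars give the mean and 95% confidence interval over all 8 arrays, squares the mean without WT replicate 1, and ticks the 4 differences between same-numbered arrays. The 4 ticks of Tnf lie between 0.45 and 0.56, whereas those of Nfkb2 run from -0.97 to 1.28.

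WT replicate 1 stood apart in these genes. It was the highest WT array for 7 of the 9, whereas it was the highest WT array for 27.3% of all genes. Its excess over the mean of the other WT arrays was 1.45 for Nfkb2, 1.39 for Relb, 1.02 for Birc3, 0.66 for Tnfaip3, 0.63 for Nfkbia, 0.39 for Tnf and 0.27 for Rela. For Traf1 and Il1b it was below that mean, by -0.40 and -0.18. The median excess over all genes was -0.0020. Among the KO arrays, replicate 4 was the highest for 4 of the 9 genes, against 31.3% of all genes. Left without WT replicate 1, the comparison called 4 of the 9 genes, Rela, Relb, Birc3 and Tnf, all higher in KO, and 21.7% of all genes. The summed signals of leukocyte, macrophage, neutrophil and T cell markers of WT replicate 1 lay inside the range of the other WT arrays, and that of basal epithelial markers was the highest of the 8 arrays. Their part in these values was not tested.

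**Figure D3:**
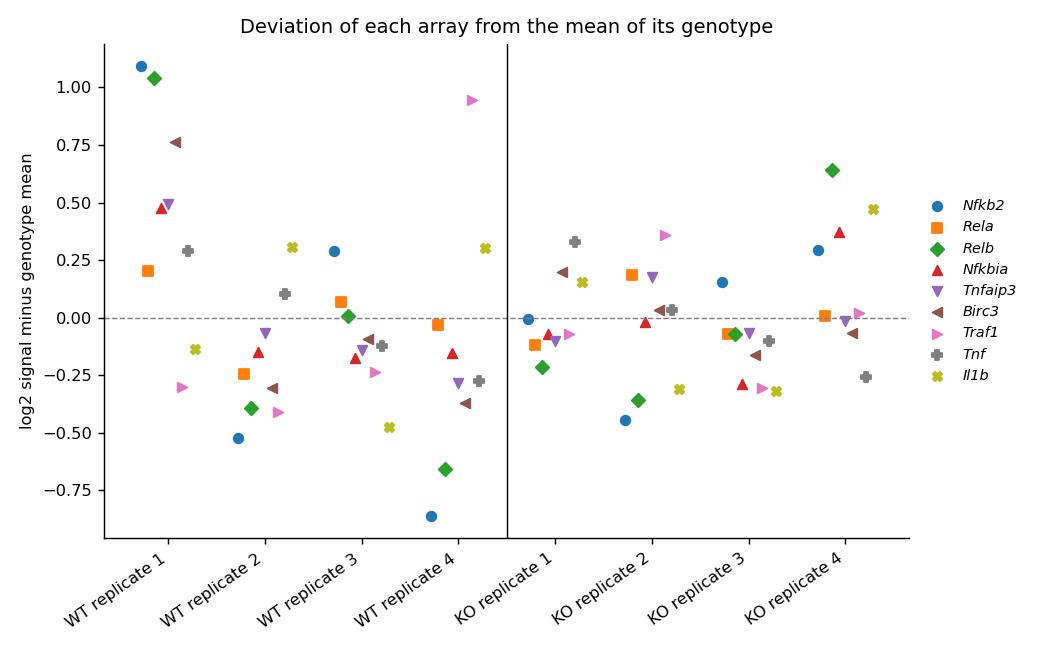
Log2 signal of each gene on each array minus the mean of its genotype (n = 4). On WT replicate 1, 7 of the 9 genes lie above the genotype mean, with Nfkb2 and Relb over 1 above it, and on WT replicate 4 Traf1 lies apart from the rest.

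Other genes of the pathway were taken from 5 lists written by role. Of their 127 genes, 105 were tested, 7 were higher and 8 lower in KO, and the median difference was -0.026 against -0.024 for all genes. The called share of 14.3% was below the 16.5% of all genes.

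Most of the lower calls, 5 of 8, were on the list of other subunits and inhibitor proteins. Of 10 genes on that list 9 were tested, 5 were lower and none higher in KO, and the median was -0.48. Among all genes, 8.96% were called lower, as given above. Nkiras2 encodes a small Ras-like protein that binds IkB proteins and slows their degradation. It read 11.38, 11.29, 11.50 and 11.08 in WT and 10.91, 10.66, 10.72 and 10.63 in KO, a difference of -0.58 ± 0.12 (limma, adjusted p = 0.0204). Its relative Nkiras1 was lower by -0.48 ± 0.13 (limma, adjusted p = 0.0374).

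Nfkbib encodes IkB-beta, the second of the classical inhibitors. Its signals were 11.74, 11.48, 11.60 and 11.22 in WT and 10.91, 10.96, 10.89 and 11.05 in KO, with a difference of -0.56 ± 0.13 (limma, adjusted p = 0.0251). Nfkbid, which encodes a nuclear IkB protein, lay at 6.80, 6.88, 6.78 and 6.53 in WT and 6.44, 6.08, 6.16 and 6.15 in KO (-0.54 ± 0.12, limma, adjusted p = 0.0255). Nkrf, a repressor that binds promoters of NF-kappaB targets, was lower by -0.77 ± 0.20 (limma, adjusted p = 0.0384), and a dimmer Nkrf probe gave -0.49 (limma, adjusted p = 0.272 over all probes). For all 5 genes each KO array was below each WT array, whereas 24.1% of all genes had no overlap in 1 direction or the other.

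The number of these calls moved with the arrays used. With the replicate block, Nkiras2, Nfkbib and Nfkbid were called and Nkiras1 and Nkrf were not (limma, adjusted p = 0.0562 and 0.0619). None of the 5 was called without WT replicate 2, WT replicate 3, KO replicate 2 or KO replicate 3, and 2 were called without KO replicate 1. In those fits 5.43%, 6.95%, 6.69%, 3.64% and 5.35% of all genes were called, against 16.5% over all arrays. With 1 array left out the differences of the 5 genes lay between -0.87 and -0.41. They stayed negative under all 18 alternatives, of which 4 ended the call of Nkiras2, 5 that of Nfkbib, 4 that of Nfkbid, 10 that of Nkiras1 and 9 that of Nkrf. The 4 other tested genes of that list had higher means in KO, none past the threshold. Bcl3, a nuclear coactivator, was at 11.23 to 12.19 in WT and 11.63 to 12.93 in KO (0.72 ± 0.33, limma, adjusted p = 0.153). Nfkbie, Nkap and Nfkbiz differed by 0.39, 0.26 and 0.0035, and each KO array of Nkap lay above each WT array.

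**Figure D4:**
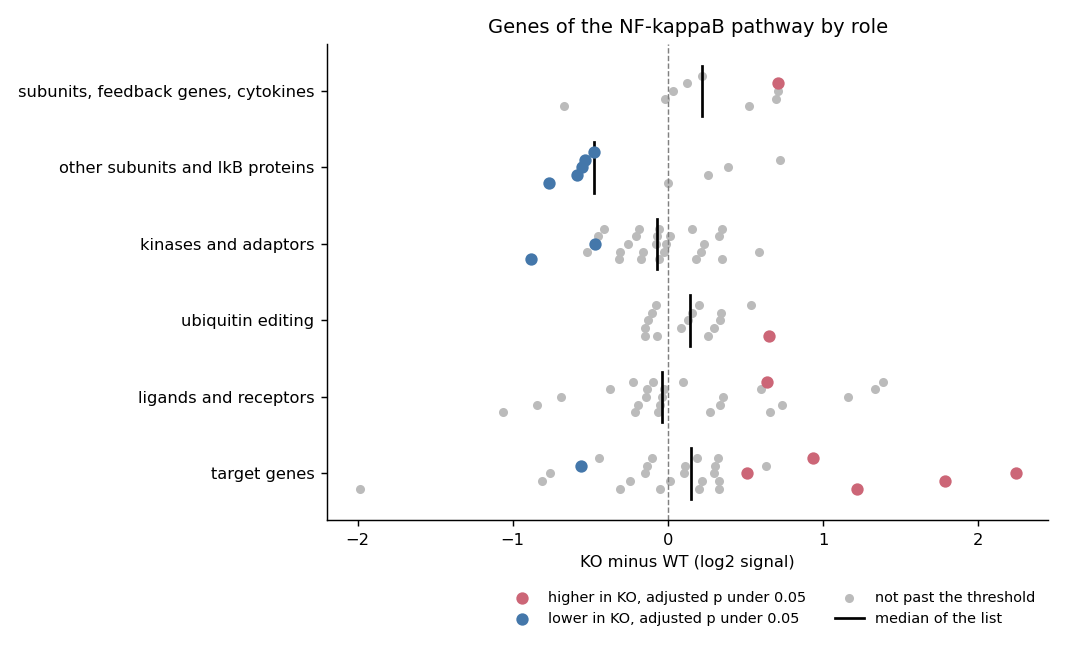
KO minus WT difference in log2 signal of each tested gene by role, with called genes in colour and the median of each list as a black line. The list of other subunits and IkB proteins holds 5 lower calls with a median of -0.48, and the target genes hold 5 higher calls and 1 lower call.

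Kinases and adaptors carry the signal from receptors to the inhibitor. Of 30 such genes 27 were tested, 2 were lower and none higher in KO, and the median was -0.071. The called share was 7.41%, below the 16.5% of all genes. Ikbke encodes a kinase related to the IkB kinases that is best known from interferon induction. It read 6.37, 7.13, 7.02 and 6.78 in WT and 5.90, 5.98, 5.78 and 6.10 in KO, a difference of -0.88 ± 0.17 (limma, adjusted p = 0.0175), or -0.44 with normexp background correction. Without KO replicate 3 it was not called (limma, adjusted p = 0.0562). Irak4, the first kinase below interleukin 1 and Toll-like receptors, was lower by -0.47 ± 0.12 (limma, adjusted p = 0.0324). A dimmer Irak4 probe gave -0.30 (limma, adjusted p = 0.112 over all probes), and 7 of 18 alternatives ended the call, normexp (-0.27) among them.

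The RANK branch, known for alveolar growth, was given whatever its values. The ligand gene Tnfsf11 was well above background on 1 WT and 1 KO array and was not tested. Its receptor gene Tnfrsf11a had a difference of 0.35 ± 0.15 (limma, adjusted p = 0.132), and a second probe of it gave 0.16. Chuk, which encodes the IkB kinase required in that branch, had -0.31 ± 0.12 (limma, adjusted p = 0.107). Ikbkb, the kinase of the faster branch, was tight within genotypes, at 9.75 to 9.83 in WT and 9.50 to 9.57 in KO. The KO arrays lay below the WT arrays and the difference of -0.26 ± 0.082 did not pass the threshold (limma, adjusted p = 0.0634).

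In the ubiquitin editing list 16 of 17 genes were tested and 1, Itch, was higher in KO, with a list median of 0.14. That is 6.25% of its tested genes, below the 16.5% of all genes. Itch encodes a ubiquitin ligase that works with A20. Its values were 4.80, 5.14, 4.81 and 4.31 in WT and 5.49, 5.38, 5.33 and 5.48 in KO (0.65 ± 0.17, limma, adjusted p = 0.0349). The call of Itch was lost in 9 of 18 alternatives, with a difference of 0.28 under normexp. Among ligands and receptors 25 of 31 genes were tested and 1, Il1r1, was higher, with a median of -0.040. The called share there was 4%, also below that of all genes. Il1r1 encodes the signalling receptor for interleukin 1 beta. It lay at 8.87, 8.63, 8.42 and 8.39 in WT and 9.52, 9.04, 9.27 and 9.03 in KO, so that the receptor rose by 0.64 ± 0.16 (limma, adjusted p = 0.0315) on the same arrays on which Il1b was lower by mean. The replicate block gave 3 higher calls and 1 lower call in this list, where it called 19.5% of all genes. Of the 18 alternatives, 7 ended the call of Il1r1.

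Most of the higher calls, 5 of 7, were among target genes other than the feedback genes. Of 39 genes 28 were tested, 5 rose and 1 fell, and the median was 0.15. The called share was 21.4%, against 16.5% of all genes. Higher calls made up 17.9% of the tested genes of the list, against 7.53% of all genes. Cxcl1, a neutrophil-attracting chemokine, read 6.69, 6.57, 6.40 and 7.64 in WT and 8.92, 9.12, 9.27 and 8.95 in KO. All KO arrays were above all WT arrays, and the difference of 2.24 ± 0.26 was a 4.73-fold increase (limma, adjusted p = 0.00417).

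Plau, the urokinase plasminogen activator, was the tightest of these genes, at 7.15 to 7.27 in WT and 7.66 to 7.82 in KO (0.51 ± 0.088, limma, adjusted p = 0.0139). A dimmer Plau probe gave 0.48 (limma, adjusted p = 0.0767 over all probes). Icam1, the adhesion molecule to which leukocyte integrins bind, was 6.15, 5.51, 5.50 and 5.49 in WT and 6.96, 6.17, 6.90 and 6.36 in KO (0.94 ± 0.23, limma, adjusted p = 0.0307). Gadd45b, a stress-induced gene that restrains JNK signalling, rose by 1.22 ± 0.30 (limma, adjusted p = 0.0323). WT replicate 1 was the highest WT array for both Icam1 and Gadd45b. For Gadd45b it (10.31) lay above KO replicate 4 (10.28), so the genotypes overlapped.

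Ier3, an early response gene that was named after its values were seen, rose by 1.79 ± 0.46 (limma, adjusted p = 0.0351). Sod2, the mitochondrial superoxide dismutase and a commonly used target gene, moved the other way. It read 15.17, 15.21, 14.91 and 15.40 in WT and 14.45, 14.71, 14.46 and 14.84 in KO (-0.56 ± 0.14, limma, adjusted p = 0.0328). Of the 39 genes of this list 28 had a promoter window, not the same set as the 28 tested. The kappaB consensus was found in 13 of them, against 9.55% of all genes and 12.2% of tested genes. Cxcl1, Ier3 and Sod2 were among the 13, Icam1 and Gadd45b were not, and Plau had no window. Leaving out 1 array at a time gave 2 to 6 higher calls among the target genes, and Cxcl1 and Plau were called in each case. Over the 18 alternatives the call was lost in 6 for Icam1, 8 for Gadd45b, 7 for Ier3 and 6 for Sod2, and Icam1 was 0.50 under normexp.

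Some cell type markers also differed between the genotypes. The summed linear signal of 12 neutrophil markers was 1814 to 7875 in WT and 8045 to 19375 in KO, with no overlap. S100a9 and S100a8 made up 85.1% to 95.3% of that sum on each array, and the other 10 genes summed to 269.8 to 367.7 in WT and 470.6 to 1063 in KO. Of 8 neutrophil markers tested 2 (25%, against 16.5% of all genes), the granule protein genes Camp and Ngp, were called. Both entered the test through the KO arrays alone, since no WT array had them well above background, and they were at least 8.54-fold and 7.11-fold higher in KO. Both are also among the 12 and the 10 genes summed above, and whether either sum overlaps without them was not examined. Mpo, Csf3r and Fpr1 differed by 0.24, 0.080 and -0.26, none past the threshold. The granulocyte protease gene Elane was not well above background on any array. S100a9 read 8.68 to 12.16 in WT and 12.34 to 13.75 in KO (2.19 ± 0.67, limma, adjusted p = 0.0566), and S100a8 differed by 0.49 ± 0.36 (limma, adjusted p = 0.357). The neutrophil sum was highest on KO replicate 1, which also had the highest Tnf signal. Among the WT arrays the sum was highest on replicate 4 (7875), which had the lowest Tnf signal of all arrays (5.07). On that WT array, Cxcl1 was the highest of the WT arrays (7.64) and Icam1 the lowest of them (5.49). On KO replicate 1, Icam1 was the highest of the KO arrays (6.96) and Cxcl1 the lowest of them (8.92). The part of the neutrophil sum in the differences of Tnf, Cxcl1 and Icam1 was not tested.

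The pan-leukocyte list (9 genes) summed to 13510 to 19984 in WT and 10821 to 16699 in KO, and its gene Ptprc (CD45) differed by -0.21 ± 0.18 (limma, adjusted p = 0.435). Macrophage markers, 6649 to 8246 in WT and 5675 to 9597 in KO, had no call among 9 genes. Their brightest genes Csf1r and Adgre1 differed by 0.033 ± 0.16 and -0.15 ± 0.21 (limma, adjusted p = 0.896 and 0.637). T cell markers summed to 703 to 1952 in WT and 809 to 1070 in KO, with 2 of 9 genes called lower, against 8.96% of all genes. These were Cd3e (-0.60, limma, adjusted p = 0.0369) and Cd4 (-0.43, limma, adjusted p = 0.0403), the coreceptor of the lineage that Th-POK directs. In both each KO array lay below each WT array, where 24.1% of all genes had no overlap. Cd4 was dim, with means of 4.77 in WT and 4.34 in KO. With the replicate block Cd3e was called (limma, adjusted p = 0.0421) and Cd4 was not (limma, adjusted p = 0.0596). The brighter Cd3d and Lck did not pass (limma, adjusted p = 0.603 and 0.583).

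Luminal epithelial markers summed to 842113 to 888874 in WT and 898357 to 940759 in KO, and adipocyte markers to 294855 to 410186 in WT and 414762 to 581267 in KO, neither with overlap. Wap and Csn2 made up 61.7% to 67.9% of the luminal sum, and Cfd and Fabp4 72.7% to 80.4% of the adipocyte sum, where the sums of the other 6 genes overlapped. The luminal genes did not move as one: of 10 tested, Krt18, Epcam and Cdh1 were called higher and Muc1 lower, 2 each way with the replicate block, and the means of Elf5 and Lalba were lower in KO by -0.35 and -0.45. The called share was 40%, against 16.5% of all genes. Of 8 adipocyte genes tested 2 were called higher (25%, against 7.53% of all genes) and none lower. The milk protein genes Wap and Csn2, which mark the tissue as lactating gland, were at 18.33 to 18.48 and 17.70 to 17.85 over all arrays. What these sums contribute to the subunit and inhibitor results was not tested.

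**Figure D5:**
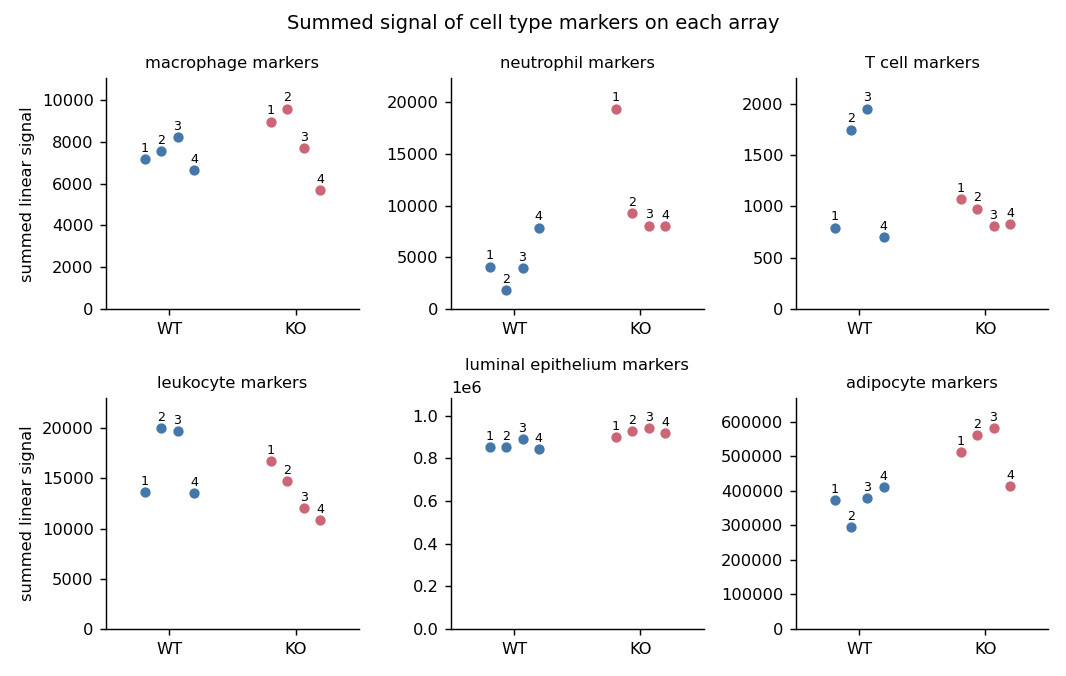
Summed linear signal of the marker genes of 6 cell types on each array, with the replicate number above each point. Neutrophil, luminal and adipocyte sums of the KO arrays lie above those of the WT arrays, whereas macrophage, T cell and leukocyte sums overlap. The neutrophil sum includes Camp and Ngp.

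Genes whose profile over the 8 arrays was most like that of Rela, Tnf and Il1b were found by the root mean square difference between profiles centred on their own means. The nearest to Rela were Phlpp2 (0.054), Zfp608 (0.068) and Rhbdf2 (0.069), where the centred profile of Rela itself had a root mean square of 0.38. A second Phlpp2 probe differed in sign, with 7.17 in WT and 6.60 in KO by mean. Nearest to Tnf, with a root mean square of 0.34, were Tnxb (0.082), the interleukin 1 receptor gene Il1r1 (0.12) and Flrt2 (0.12). For Flrt2 a dimmer probe gave a difference of -0.030 against 0.68 for the brighter one. Nearest to Il1b, with 0.47, were Wls (0.15), 4933417G07Rik (0.16) and Hspb9 (0.17), so the profiles near Il1b were less alike than those near Rela.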

How the data were processed

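For each of the 8 arrays the authors deposited the scanner output of Agilent Feature Extraction 10.7, whose processed intensity is background-subtracted and not normalized between arrays. They also deposited a table of log2 values, quantile-normalized in GeneSpring, used here as an alternative. Here log2 of the processed intensity was normalized by quantiles across arrays with limma 3.58.1 in R 4.3.3, and spots marked as outliers (64 to 100 per array) were left out. Probes took symbols from their accession through RefSeq tables (GRCm38.p6); the scanner output names mm9, so only promoter windows carry coordinates. A probe entered where every array of WT, of KO or of both had it well above background (66.8% to 75.3% of probes per array were), and the brightest probe stood for its gene. Genotypes were compared with lmFit and eBayes, with Benjamini-Hochberg adjustment over 14137 genes, and a gene was called at an adjusted p under 0.05.

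The genes, lists and tests were chosen with earlier results of these data known. Named were the 10 genes, 4 RANK pathway genes, up to 5 called genes of each list by p, the 3 profiles nearest to each of the 3 members with the smallest p, and the 2 brightest markers of 4 cell types with Ptprc and Zbtb7b; Ier3 and other markers fall outside that rule, chosen after their values were seen. The labels number the arrays 1 to 4 in both genotypes and do not say that equal numbers were matched. Deviations from the genotype means correlated at r = 0.16 to 0.30 between same-numbered arrays and at a mean of -0.079 otherwise. Between different numbers r ran from -0.32 to 0.34, the highest being WT replicate 1 with KO replicate 3. Only 4 of 8 arrays correlated best with their own number, so these correlations do not establish a pairing. Alternatives were scaling to the 75th percentile, normexp background correction (offset 50), the authors' table, no or a stricter filter, the mean of probes, the block, the methods' t-test, a trended robust eBayes, array weights and leaving out each array. Normexp was planned on the mean signal and run on the median signal, which the files hold.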

Additional observations from a re-analysis of the deposited data

Results flagged for a closer look

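In 8 of the 88 groups of 4 arrays examined (the named genes in each genotype), the highest or lowest array stood apart by Dixon's criterion at 95%, which chance gives in about 1 of 20 groups. WT replicate 1 accounted for 3 of them: Nfkbia at 14.58 against 13.93 to 13.96 on the other WT arrays, Icam1 at 6.15 against 5.49 to 5.51, and Gadd45b at 10.31 against 9.15 to 9.26. Traf1 on WT replicate 4, at 11.75, stood apart from 10.39 to 10.56. On KO replicate 4, Wls was at 11.50 against 11.02 to 11.07 and 4933417G07Rik at 9.88 against 9.16 to 9.23, both genes with profiles like that of Il1b. Csf1r on WT replicate 3 was at 10.81 against 10.50 to 10.54. For Wap, KO replicate 2 was at 18.44 and the other KO arrays shared the value 18.48, a tie that quantile normalization gives to the brightest probes.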

How the results depend on the processing

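Rela was called under all 18 alternatives. With the replicate block, 3 of the 9 genes were called, Tnf (0.52) and Il1b (-0.67) besides Rela, and with array weights 3, Tnf (0.54) and Traf1 (0.77) besides Rela. Leaving out 1 array gave 1 to 4 calls, with differences of -0.16 to 0.49 for Nfkb2, -0.090 to 0.19 for Nfkbia, -0.11 to 0.15 for Tnfaip3, 0.48 to 1.04 for Relb, 0.095 to 0.47 for Birc3, 0.57 to 1.02 for Traf1, 0.41 to 0.62 for Tnf, -0.83 to -0.57 for Il1b, -0.061 to 0.17 for Csf1r, -0.31 to 0.027 for Adgre1, -0.016 to 0.036 for Csn2, 0.22 to 0.72 for S100a8, -0.34 to -0.11 for Ptprc, -0.63 to -0.018 for Cd3d and -0.60 to -0.024 for Lck. Signs also turned with array weights for Nfkb2 (-0.051) and Nfkbia (-0.037), with 75th percentile scaling for Nfkbia (-0.14), Csn2 (-0.14) and Wap (-0.11), with normexp for Tnfaip3 (0.0028) and Csn2 (-0.016), and with the mean of probes for Csf1r (-0.092).

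Of the other pathway genes, 15 in the fit as reported, the methods' t-test called 9 and array weights 28, and leaving out 1 array gave 2 to 18. Over all genes the same fits called 9.83%, 27.2% and 3.64% to 21.7%, against 16.5%. The 5 lower calls among other subunits and IkB proteins were 3 with no filter, 3 with the replicate block and 3 with the t-test, and 0 to 5 without 1 array. The 5 higher calls among target genes were 3 with no filter and 2 with the t-test, and 2 to 6 without 1 array. Marker genes called were 13 as reported, 7 with no filter, 4 with the t-test and 3 to 12 without 1 array. The methods' t-test, at its threshold in an unadjusted p, held for 3 of the 9 genes and for 4765 of all genes, and after Benjamini-Hochberg for 1 and 1389. The cause of these changes was not tested. For the other 35 named genes, of 630 values 93 lost a call, 14 gained one, 10 changed sign and 513, those of genes never called included, did none of these.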
